A study of Zea mays with 14 samples.

Results

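The relative representation of each mRNA on polysomes was measured in germinated maize (Zea mays) embryonic axes that received no insulin, by setting polysomal RNA against total RNA of 24 h germinated axes. The samples were those titled as polysomal RNA without insulin (3 samples, numbered 1 to 3) and as total RNA at 24 h (2 samples, M4 and RB), which make 5 of the 11 biological samples and 6 of the 14 arrays in the series. Every probe set other than the AFFX and RPTR controls was used, 17555 in all.

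The polysomal samples came from axes dissected after 22 h of imbibition in darkness and kept for 2 h in Murashige and Skoog medium with no insulin, and their RNA was extracted from 2 g of axes after polysomes were concentrated through a sucrose cushion. The 24 h total RNA came from 1 g of axes of seeds germinated for 24 h on wet cotton, and the labels do not say whether these axes also spent time in the medium. M4 was hybridised to 2 arrays, which were averaged, and RB to 1 array. Polysomal and total RNA of axes given 200 µU/mL bovine insulin in the same medium (3 samples and 1 sample) and total RNA of quiescent axes (2 samples) are used only beside these results. The labels name no cultivar or seed lot.

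Polysomes are mRNAs that carry several ribosomes at the same time, and an mRNA that is held out of translation is found outside them. In a dry seed the embryo stores mRNAs made during maturation, and germination begins with the use or decay of these and with the transcription of new ones. A cushion collects every complex dense enough to pass through it and does not sort mRNAs by the number of ribosomes they carry. An array value is a relative one, and a shift shared by most mRNAs would go unseen. In whole axes, fewer cells of a type and less RNA per cell cannot be told apart.

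The 24 h samples stood apart from each other, with 2014 probe sets (11.5%) more than 2-fold apart between M4 and RB. Polysomal samples 1, 2 and 3 differed by more than 2-fold from M4 at 678, 1477 and 938 probe sets and from RB at 2099, 2934 and 2731, against 318 to 654 between pairs of polysomal samples. RB therefore lay farther from every polysomal sample than M4 did, and many of the results below are also given against M4 and against RB. Across probe sets, polysomal samples 1, 2 and 3 correlated most with insulin-treated polysomal samples 2, 1 and 3 (r = 0.997, 0.996 and 0.994), above any sample of their own group (at most 0.990). The log2 ratio of 3′ to 5′ control probe sets for elongation factor EF1a was 1.32, 2.55 and 0.88 in polysomal samples 1 to 3, against 0.63 and 0.62 in M4 and RB. The poly-A spike-in controls had median log2 levels of 10.84, 9.54 and 8.45 in polysomal samples 1 to 3, against 7.47 and 7.56 in M4 and RB. The EF1a ratio and the spike-in level were thus higher in every polysomal sample than in both total RNA samples. So was the 3′ to 5′ ratio for cyclophilin (0.07, 0.20 and −0.14, against −0.20 and −0.23). The ratio for ubiquitin overlapped between the groups (0.58, 1.33 and 0.59, against 0.61 and 0.52). The part of these measures in the results was not tested, other than by adding the EF1a ratio to the fit.

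The first comparison asked which mRNAs were represented more or less on polysomes than in total RNA. Time in the medium, stated for the polysomal axes and not for the 24 h axes, cannot be told apart from representation on polysomes. A few mRNAs stood out, and more of them were under-represented than over-represented. An alkaline α-galactosidase, a stress-related transcription factor and its interacting protein, and an abundant HSP70 were among the mRNAs that were lower in polysomal RNA, while a plastid ribosomal protein, a glutathione S-transferase and a cytokinin phosphotransfer protein were higher. With limma over all 5 groups, 190 of 17555 probe sets (1.08%) had a Benjamini-Hochberg adjusted p under 0.05 (19.6% had an unadjusted p under 0.05), of which 54 were higher (0.308%) and 136 lower (0.775%) in polysomal RNA. All 190 had groups that did not overlap, as did 14.9% of all probe sets in the higher and 17.8% in the lower direction. At least 2-fold differences were seen in 36 of the 54 and 116 of the 136, and at least 4-fold differences in 2 and 35. The median difference was 1.16 log2 units for the higher and −1.41 for the lower probe sets.

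Most probe sets lay close to parity. Among the 13807 that exceeded background in every one of the 5 samples, 8914 (64.6%) had a 95% confidence interval of the difference that stayed within 2-fold in either direction. The number called depended on each sample and on the fit. It was 17, 29 and 6 without polysomal sample 1, 2 and 3, 61 without RB and 2303 without M4. It was 10 once the EF1a ratio was added to the fit and 8 when the polysomal and 24 h groups were fitted alone, so for most of the 190 the call did not hold once either was done. All 190 kept their direction in each of these fits. As their groups did not overlap, leaving out a sample or fitting the polysomal and 24 h groups alone could not turn it. Only the fit with the EF1a ratio could have done so.

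**Figure D1:**
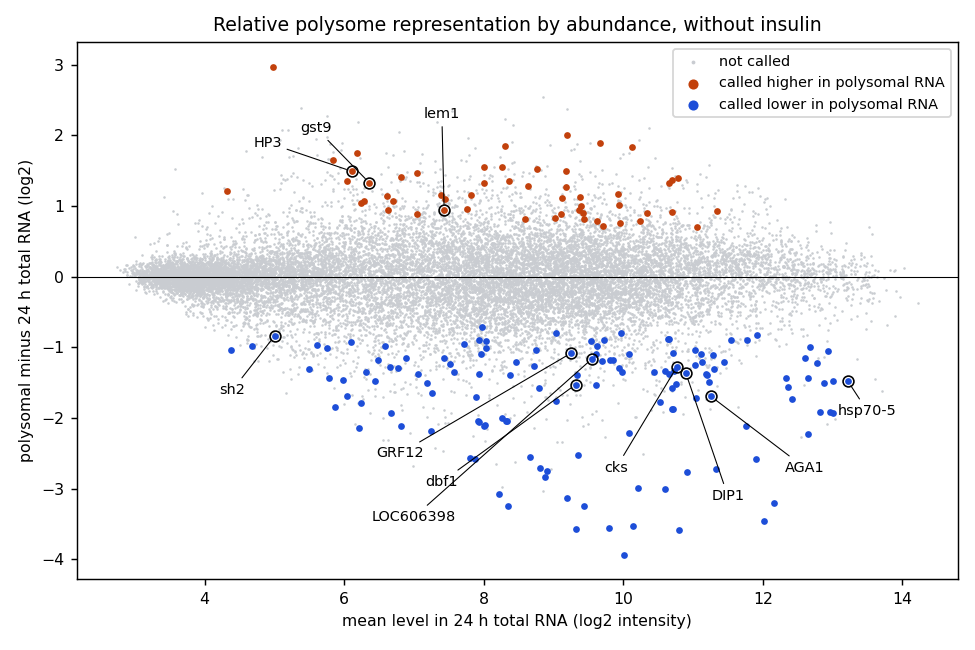
Difference between polysomal and 24 h total RNA (log2, y axis) against the mean level in 24 h total RNA (log2 intensity, x axis) for 17555 probe sets, with 54 called higher, 136 called lower and called probe sets of named genes ringed (the 3 of hsp70-5 by the brightest). The lower calls reach −3.94 and extend to a level of 13.22, while the higher calls reach 2.98.

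Genes were named through the array's 2007 annotation, updated with RefSeq symbols of Zm-B73-REFERENCE-NAM-5.0, which covered 1452 of the 17555 probe sets. Of these, 3 were called higher and 10 lower (0.895%), close to the share among all probe sets. The 13 belong to 11 genes and are described in turn.

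The largest difference among them was that of AGA1, an alkaline α-galactosidase, an enzyme class that releases galactose from the raffinose-type sugars stored in seeds. AGA1 had log2 levels of 9.77, 9.66 and 9.27 in polysomal samples 1, 2 and 3, against 11.38 and 11.13 in M4 and RB. All polysomal samples lay more than 1 log2 unit below both total RNA samples. The difference was −1.69 log2 units (3.23-fold, SE 0.24, limma adjusted p = 0.0212). The related genes AGA2 and AGA3b differed by −0.19 and −0.18 and were not called (limma adjusted p = 0.725 and 0.766).

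Both members of a known regulatory pair were lower on polysomes. dbf1 encodes an AP2-type factor that binds the dehydration-responsive element, and DIP1 encodes the protein described in maize as its interactor. dbf1 had levels of 7.96, 7.53 and 7.89 in polysomal RNA, against 9.11 and 9.52 in M4 and RB (−1.53, SE 0.19, limma adjusted p = 0.0179). DIP1 had levels of 9.57, 9.71 and 9.32 in polysomal RNA, against 10.81 and 10.98 in M4 and RB (−1.37, SE 0.16, limma adjusted p = 0.0152). The groups were clearly separated for both genes. DIP1 was also called against M4 alone and against RB alone (adjusted p = 0.0426 and 0.00453), whereas dbf1 was called against RB (0.00353) and missed the threshold against M4 (0.0559).

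The gene hsp70-5, a member of the HSP70 family of protein-folding chaperones, held the brightest probe set among those called. Its brightest probe set had levels of 11.74, 11.72 and 11.77 in polysomal RNA, against 13.24 and 13.20 in M4 and RB. Each group was tight, with an SD of 0.03 in both. The difference was −1.48 (2.79-fold, SE 0.20, limma adjusted p = 0.0179), and the other 2 probe sets of the gene gave −1.43 and −1.15 (adjusted p = 0.0266 and 0.0493). These 3 share a cluster and may share sequence, and paralogous HSP70 mRNAs may hybridise to them. A further HSP70, hsp70-4, differed by −0.89 and was not called (adjusted p = 0.0847).

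The other lower mRNAs were of varied function. cks encodes CMP-KDO synthetase, which activates a sugar of cell wall pectin, and had 9.66, 9.56 and 9.23 in polysomal RNA, against 10.77 and 10.76 in M4 and RB (−1.28, SE 0.17, limma adjusted p = 0.0179). GRF12, a growth-regulating transcription factor, had 8.14, 8.24 and 8.14 in polysomal RNA, against 8.98 and 9.52 in M4 and RB (−1.08, SE 0.19, limma adjusted p = 0.0397). LOC606398, to which the tables used give no further name, had 8.21, 8.31 and 8.68 in polysomal RNA, against 9.42 and 9.69 in M4 and RB (−1.16, SE 0.22, limma adjusted p = 0.0498). Its call lies at the edge of the threshold. The large subunit of ADP-glucose pyrophosphorylase, sh2, an enzyme of starch synthesis, was not above background in polysomal RNA (4.22, 4.09 and 4.20) and lay near it in total RNA (4.98 and 5.03 in M4 and RB), which makes it at least 1.48-fold lower on polysomes (adjusted p = 0.0292).

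Among the 12 probe sets of 8 GRF genes on the array, GRF12 was the 1 called against both samples together, and their median difference was −0.16. The medians of the 12 were −0.12 against M4 and −0.29 against RB. GRF12 differed by −0.81 from M4 and −1.35 from RB, and GRF2 by −0.43 and −1.74. The family was looked up after the GRF12 value had been seen.

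Higher representation on polysomes was found for 3 named genes. HP3 encodes a histidine phosphotransfer protein of the cytokinin signalling relay. It had 7.56, 7.79 and 7.45 in polysomal RNA, against 5.95 and 6.26 in M4 and RB (+1.49, 2.82-fold, SE 0.20, limma adjusted p = 0.0179), and it was called against M4 and against RB as well (0.0390 and 0.0120). Polysomal and total RNA samples were separated by more than 1 log2 unit. Its relative HP1, looked up afterwards, had 11.87, 11.78 and 11.86 in polysomal RNA, against 10.92 and 11.38 in M4 and RB, a difference of +0.69 that was not called (adjusted p = 0.0885).

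gst9, a glutathione S-transferase of the detoxification system, had 7.35, 7.96 and 7.77 in polysomal RNA, against 6.51 and 6.21 in M4 and RB (+1.33, SE 0.24, limma adjusted p = 0.0428). It was 1 of 35 probe sets for 31 glutathione S-transferase genes, whose median difference was 0.23. No other of them was called against both samples together. lem1 encodes the plastid ribosomal protein S9, whose loss arrests the maize embryo. It had 8.52, 8.41 and 8.22 in polysomal RNA, against 7.43 in both M4 and RB (+0.95, SE 0.14, limma adjusted p = 0.0251). The other plastid ribosomal protein named on the array, prpl35-1, lay at 7.31, 7.67 and 7.22 in polysomal RNA, against 7.18 and 7.33 in M4 and RB, and was not called.

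**Figure D2:**
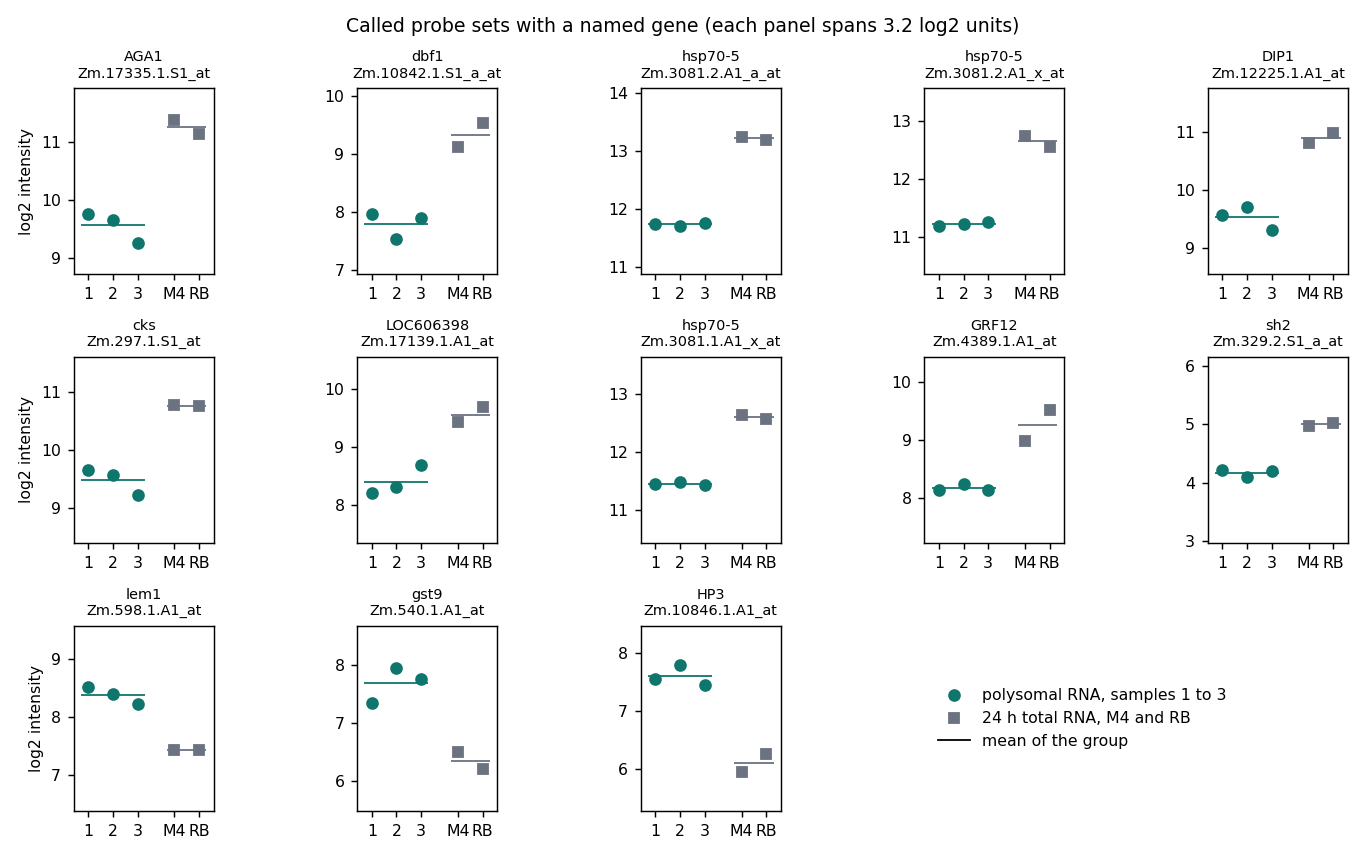
Log2 intensity (y axis) of the 13 called probe sets of named genes in polysomal RNA without insulin (circles, samples 1 to 3) and in 24 h total RNA (squares, M4 and RB), with lines at the group means. The groups do not overlap in any panel, and AGA1 has the largest gap, −1.69 log2 units.

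Removing a sample ended the call for most of these genes. Without polysomal sample 1, or without polysomal sample 3, none of the 13 probe sets was called, without RB DIP1 and HP3 remained, and without polysomal sample 2 dbf1 and DIP1 remained, while without M4 all 13 were called. None was called after adding the EF1a ratio, or when the other groups were left out of the fit. The fitted differences kept their sign throughout, between −1.82 and −1.54 for AGA1 and between 1.23 and 1.65 for HP3. With groups that do not overlap, leaving out a sample could not turn the sign, nor could leaving out the other groups.

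Probe sets without a gene name carried the largest differences. ZmAffx.1488.1.S1_at had 5.97, 6.41 and 5.87 in polysomal RNA, against 10.27 and 9.77 in M4 and RB, a 15.3-fold lower level (−3.94, SE 0.24, limma adjusted p = 0.000356). ZmAffx.1516.1.S1_s_at had 6.80, 7.30 and 7.52 in polysomal RNA, against 10.93 and 10.66 in M4 and RB (−3.58, SE 0.28, limma adjusted p = 0.00223). Both were bright in every total RNA sample of the series, quiescent ones included (10.53 to 11.13), and lay between 5.87 and 7.94 in every polysomal sample, insulin-treated ones included. In the other direction, Zm.1835.2.A1_at had 6.83, 8.94 and 8.09 in polysomal RNA, against 5.17 and 4.79 in M4 and RB (+2.98, SE 0.57, limma adjusted p = 0.0493). Zm.7008.1.A1_at had 10.67, 11.60 and 11.34 in polysomal RNA, against 9.48 and 8.90 in M4 and RB (+2.01, SE 0.37, limma adjusted p = 0.0429). The spread among polysomal samples was wider for these higher probe sets than for the lower ones.

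The share called was also counted by kind of identifier. Of the 2179 probe sets with the ZmAffx prefix, 1 was called higher and 32 lower (1.51%), while of the 15376 with the Zm prefix 53 were called higher and 104 lower (1.02%). The suffix s_at marks probe sets that match several transcripts, and 13 of 315 were called lower and 1 higher (4.44%), and such probe sets cannot be tied to a single transcript. Probe sets of the same cluster as a called one, but not called themselves, mostly leaned the same way. Of 24 such partners of higher probe sets, 16 had the same sign (median 0.44), and of 76 partners of lower ones, 55 had the same sign (median −0.48).

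The contrast was then taken against each 24 h sample alone. Against M4, 61 probe sets were called (0.347%), 18 higher (0.103%) and 43 lower (0.245%) in polysomal RNA. Against RB, 2303 were called (13.1%), 1033 higher (5.88%) and 1270 lower (7.23%). A lone total RNA sample gives no spread of its own and was assumed to vary like the other groups. M4 and RB lay farther apart than any pair of polysomal samples, so adjusted p-values against a lone 24 h sample may be too small. More than 2-fold differences were counted without any test, and they were 251 higher and 502 lower against M4, and 1093 higher and 1287 lower against RB. The 54 probe sets called higher against both samples together had medians of 1.07 against M4 and 1.18 against RB, and the 136 called lower had medians of −1.27 and −1.58. M4 and RB were more than 2-fold apart at 1 of the 54 and 16 of the 136, where 11.5% of all probe sets were. A wide gap between M4 and RB raises the SE and so makes a call less likely at an equal difference. The median gap was 0.24 log2 units for the 54, 0.33 for the 136 and 0.33 for all probe sets. Only the higher calls thus lay where the 2 samples were closer than usual.

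The calls against RB were set beside germination itself, as M4 minus quiescent total RNA, which shares no sample with them. Of the 1033 probe sets that were higher on polysomes than in RB, 659 (63.8%) were also more than 2-fold higher in M4 than in quiescent axes, against 18.0% of all probe sets. Of the 1270 that were lower than in RB, 678 (53.4%) were more than 2-fold lower in M4 than in quiescent axes, against 17.9% of all. The calls against M4 were set beside RB minus quiescent total RNA in the same way. Of the 18 higher than in M4, 12 (66.7%) were more than 2-fold higher in RB than in quiescent axes, against 17.1% of all probe sets, and of the 43 lower than in M4, 15 (34.9%) were more than 2-fold lower, against 14.9% of all. Calls against either 24 h sample thus often ran in the direction in which the other 24 h sample differed from quiescent axes. Polysome loading and the state of the axes cannot be told apart in the contrast against RB, against M4 or against both. The polysomal axes were in the medium, and the labels do not say whether those of M4 or RB were.

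Nitrate assimilation genes were looked up after their values had been seen. Of 8 probe sets for 5 genes, 1 each of nar, NIR and NNR1 lay more than 2-fold above RB, as did 1093 of all 17555 probe sets. All 8 lay within 2-fold of M4. The median of the 8 was 0.24 against RB and 0.02 against M4, and none was called against both samples together. The nitrate transporter nrt2 differed from RB by 0.24, and Nrt1.1 was at background. Nitrate reductase (nar) had 10.99, 11.67 and 11.48 in polysomal RNA, against 10.56 in M4 and 7.13 in RB. Nitrite reductase (NIR) had 12.34, 12.18 and 12.60 in polysomal RNA, against 12.31 in M4 and 9.81 in RB. A further probe set of each gene was dimmer, at 4.85 to 5.18 for nar and 6.20 to 6.71 for NIR in polysomal RNA, and is not described further. M4 lay within the polysomal range for NIR, and RB lay below that range for both. The differences from RB were +4.26 for nar and +2.56 for NIR (limma adjusted p = 0.000903 and 0.00104), and those from M4 were +0.82 and +0.07 (adjusted p = 0.281 and 0.947). Total RNA of insulin-treated axes, which were in the medium, had 10.58 for nar and 12.29 for NIR, close to M4, and quiescent axes had 4.21 and 4.40 for nar. Murashige and Skoog medium contains nitrate, and whether M4 or RB had been in it was not stated in the labels and was not tested.

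Genes of fermentation and low oxygen followed the same order. Haemoglobin (Hb), which plants make when oxygen is low, had 13.47, 13.24 and 13.57 in polysomal RNA, against 13.33 in M4 and 11.31 in RB (+2.11 against RB, limma adjusted p = 0.00104). Alcohol dehydrogenase adh2 had 12.02, 12.08 and 12.30 in polysomal RNA, against 12.22 in M4 and 9.45 in RB (+2.68 against RB, limma adjusted p = 0.0141). Pyruvate decarboxylase pdc2 had 9.65, 8.93 and 8.99 in polysomal RNA by its s_at probe set, against 9.18 in M4 and 6.82 in RB (+2.37 against RB, limma adjusted p = 0.0154). None of the 3 was called against M4. Of the 23 probe sets for glycolysis and fermentation, 7 were more than 2-fold from RB, where 13.6% of all probe sets were, and 0 from M4. Their medians were 0.24 against RB and −0.04 against M4, and none was called against both samples together. Phosphofructokinase pfk1 was lower than in RB (−1.45), while the enolase eno2 differed by 0.12 from M4 and 0.05 from RB.

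**Figure D3:**
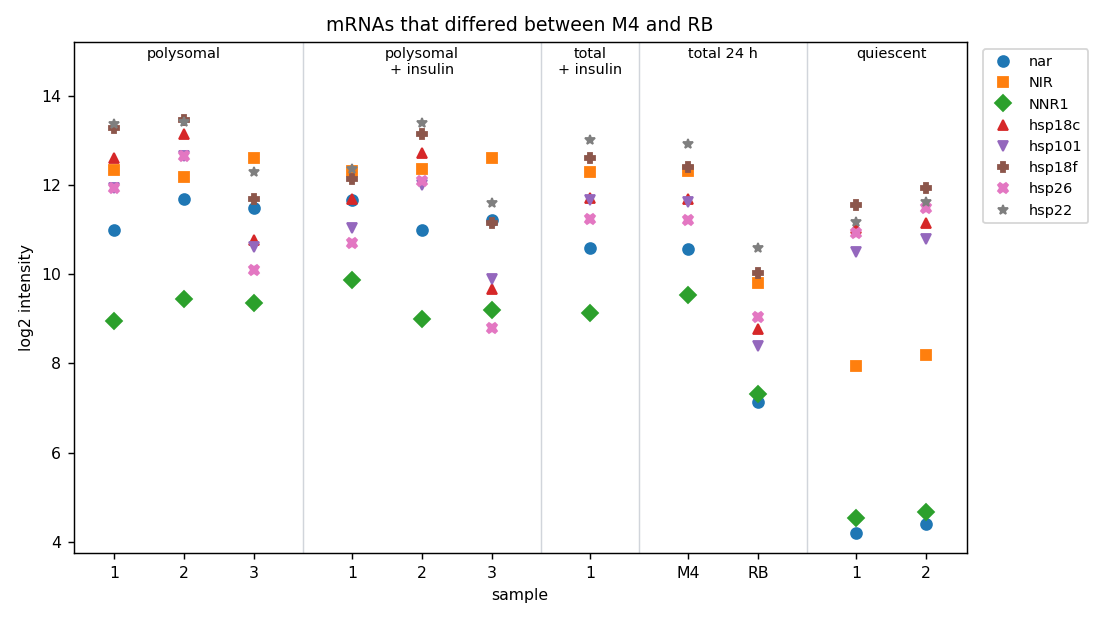
Log2 intensity (y axis) of nitrate reductase genes (nar, NNR1), nitrite reductase (NIR) and 5 heat shock genes in each sample (x axis), polysomal samples on the left and total RNA on the right. RB lies below M4 for all 8 genes, by 3.43 log2 units for nar, and polysomal sample 3 lies below samples 1 and 2 for the heat shock genes.

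Heat shock proteins and chaperones, which fold proteins or hold unfolded ones, differed from RB in both directions. Of their 21 probe sets, 13 were more than 2-fold from RB, where 13.6% of all probe sets were. From M4, 4 were more than 2-fold apart, where 4.29% of all were. The 21 probe sets had a median difference of 0.40, which was −0.07 against M4 and 0.82 against RB, and 3 were called lower against both samples together, all of hsp70-5. The disaggregase hsp101 had 11.94, 12.66 and 10.62 in polysomal RNA, against 11.62 in M4 and 8.38 in RB. The small heat shock protein gene hsp22 had 13.38, 13.40 and 12.30 in polysomal RNA, against 12.91 in M4 and 10.58 in RB. M4 lay inside the polysomal range for both, and RB far below it. They differed from RB by +3.36 and +2.45 (limma adjusted p = 0.0365 and 0.0420) and from M4 by +0.12 each. The endoplasmic reticulum chaperone calreticulin (CRT) was also called higher against RB by 1 of its 2 probe sets (+1.04, adjusted p = 0.0149), while the dimmest of the 4 calnexin (CNX) probe sets was called lower (−1.50, adjusted p = 0.0235).

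Among the lists of cytosolic ribosomal proteins and translation factors, none was called against both samples together. Cytosolic ribosomal proteins are the usual example of mRNAs whose entry into polysomes is regulated as a class in eukaryotes. Of 28 probe sets for 19 of them, none was called in either direction, where 1.08% of all probe sets were. At that share a list of this size would hold few calls or none. In limma 4 had an unadjusted p under 0.05, where 19.6% of all probe sets did. Their median difference was 0.06 (0.14 against M4 and −0.06 against RB), and 26 of 28 had a 95% interval within 2-fold. They ranged from −0.89 for RPL19 (11.58, 11.01 and 11.32 in polysomal RNA, against 12.14 and 12.24 in M4 and RB, adjusted p = 0.0901) to +0.56 for rpp2a-2 (12.08, 12.17 and 12.21 in polysomal RNA, against 11.59 in both M4 and RB, adjusted p = 0.0658). rps6, the target of S6 kinase, had 4 probe sets between −0.04 and 0.32. TOR kinase and S6K, which lie upstream of that target, differed by −0.48 and −0.28 and were not called (adjusted p = 0.274 and 0.337).

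Translation factors had 31 probe sets with a median of −0.11, and none was called, where 1.08% of all probe sets were. In limma 7 had an unadjusted p under 0.05, where 19.6% of all did, and 24 had a 95% interval within 2-fold. The lowest was initiation factor EIF5, with 10.13, 9.31 and 10.35 in polysomal RNA, against 10.52 and 11.64 in M4 and RB (−1.15, adjusted p = 0.146). GOS2, an eIF1-type initiation factor, had 13.18, 13.10 and 13.00 in polysomal RNA, against 13.56 and 13.99 in M4 and RB (−0.68, adjusted p = 0.0811). Both, together with the RNA helicase eIF-4A (−0.58 against RB), were called lower against RB (limma adjusted p = 0.0259, 0.0168 and 0.0432) and not against M4. Elongation factor EF1A by its shared probe set lay at 13.15, 13.04 and 13.15 in polysomal RNA, against 13.05 and 13.18 in M4 and RB.

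The storage protein, late embryogenesis abundant and oleosin lists cover mRNAs of the maturing seed. The storage globulin glb1 had 8.93, 6.02 and 6.55 in polysomal RNA, against 9.27 and 9.10 in M4 and RB, a difference of −2.02 with an SE of 1.02 that was not called (adjusted p = 0.308). EMB5, a late embryogenesis abundant protein, had 10.60, 9.33 and 9.46 in polysomal RNA, against 11.64 ± 0.51 in M4 and RB (SD, n = 2), and its difference was not called (−1.84, limma adjusted p = 0.0943). The oleosin ole1, which coats oil bodies, had 12.24, 10.91 and 11.00 in polysomal RNA, against 11.69 and 12.98 in M4 and RB (−0.95, adjusted p = 0.381). Polysomal sample 1 was the highest of the 3 for each of these genes. For glb1 the same held for insulin-treated polysomal sample 2, its closest partner, with 9.09 against 5.77 and 6.28 in insulin-treated polysomal samples 1 and 3. The dehydrin rab17 had 11.09, 10.06 and 10.10 in polysomal RNA, against 10.42 in M4 and 12.50 in RB, and differed from them by −0.01 and −2.08, with neither called (limma adjusted p = 0.997 and 0.0798). None of the 6 probe sets for late embryogenesis abundant proteins and dehydrins and none of the 18 for storage proteins was called, and 12 of the 18, zeins of the endosperm among them, were at background in both groups.

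Aquaporins, cell wall, secretory pathway and histone genes had no call against both samples together, where 1.08% of all probe sets were called, and some against RB, where 13.1% of all were. Aquaporins had 24 of 26 probe sets above 0 with a median of 0.32, none of them called, but the median was near 0 against M4 and 0.53 against RB, where 6 were called higher and 1 lower. The one lower was TIP3-1, an aquaporin of seed storage vacuoles, with 8.27, 8.10 and 7.77 in polysomal RNA, against 7.84 in M4 and 9.25 in RB. TIP1-1 and PIP1-1, of the vacuole and plasma membrane, were among the higher ones (+1.07 and +1.23 against RB, limma adjusted p = 0.00520 and 0.00771). The 33 cell wall probe sets had a median of −0.21 against M4 and 0.41 against RB, with 6 called higher against RB, the hydroxyproline-rich glycoprotein HRGP among them (+3.37, limma adjusted p = 0.00376). The 17 secretory pathway probe sets had medians of −0.04 and 0.62 with 5 called higher against RB, led by the protein disulfide isomerase pdi8 (+1.86, limma adjusted p = 0.00910). The 11 histone probe sets had medians of −0.03 and 0.59, with 3 called higher against RB. No probe set of these 4 classes was called against M4.

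Cell cycle genes, tubulins, photosynthesis genes, and peroxidases with lipid transfer proteins (17, 21, 14 and 8 probe sets) had no call against both samples together. Their median differences were −0.01, −0.10, 0.14 and 0.20. Cyclin cycD2 was the lowest of the cell cycle genes, at 9.51, 8.82 and 9.45 in polysomal RNA, against 10.31 and 10.77 in M4 and RB (−1.28, adjusted p = 0.0868), and it was called against RB (−1.51, limma adjusted p = 0.0466). The 7 probe sets annotated to the ubiquitin-conjugating enzyme ubc7 were all below 0 (median −0.59), with none called against both samples together. Their medians were −0.47 against M4 and −0.75 against RB. Of the 7, 2 share their cluster number with probe sets of the zein gene gz27, and what these 2 measure is uncertain.

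**Figure D4:**
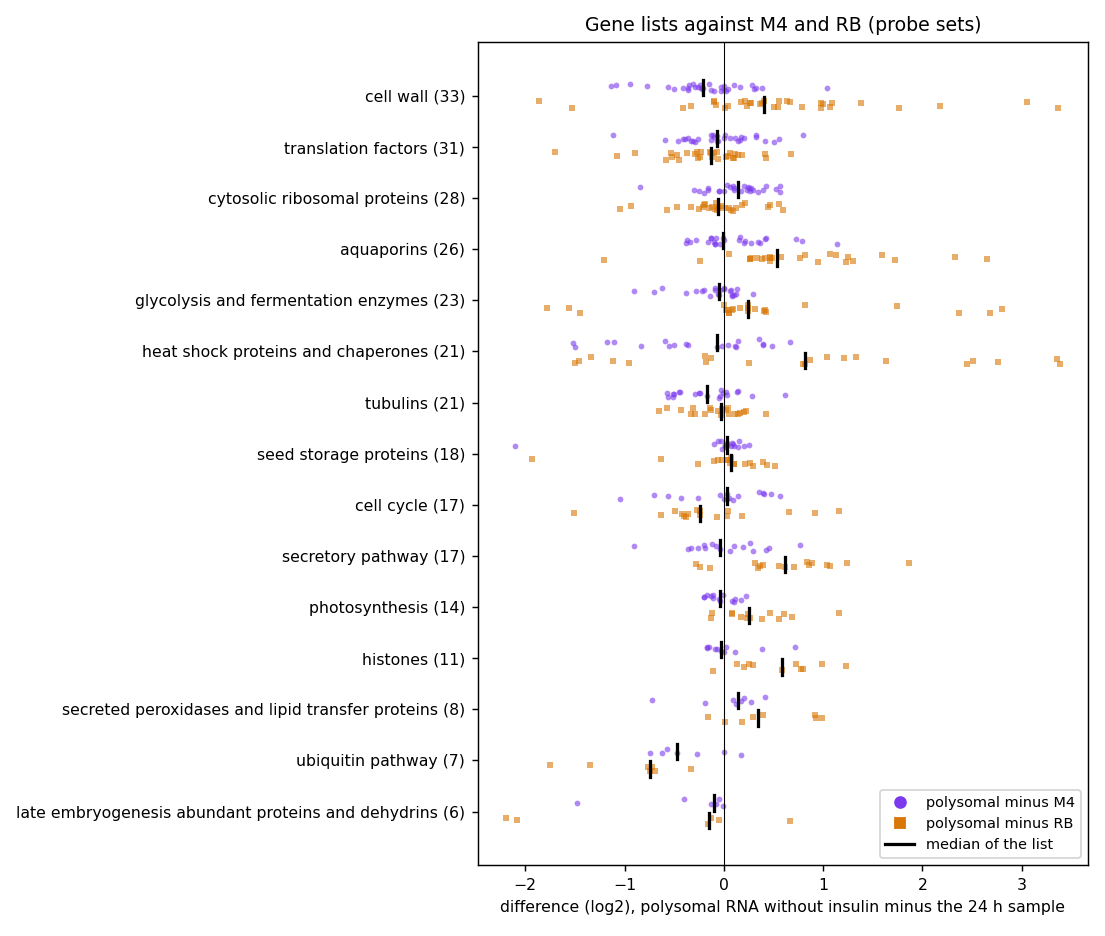
Differences (log2, x axis) of polysomal RNA without insulin from M4 (circles) and from RB (squares) for each probe set of 15 gene lists (y axis, with the number of probe sets), with the median of each list as a black bar. Medians for cell wall, heat shock, secretory pathway, aquaporin and histone genes lie below 0 against M4 (lowest −0.21) and above it against RB (0.41 to 0.82), while those for ribosomal proteins are 0.14 and −0.06.

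Representation on polysomes was next examined by abundance, with probe sets split into 5 bins of 3511 by their mean level in 24 h total RNA. Median differences were −0.01, 0.01, −0.02, −0.03 and 0.03 from the lowest to the highest bin. The interquartile range was 0.20 in the lowest bin, where 3.62% of probe sets exceeded background throughout, and 0.51, 0.72, 0.65 and 0.56 in the others. Called higher were 1, 10, 14, 17 and 12 probe sets, and called lower 2, 17, 30, 26 and 61. The highest bin thus held 61 of the 136 lower calls, and 2.08% of it was called in either direction. The median SE was 0.20 there and 0.23, 0.25 and 0.23 in bins 2 to 4, so smaller differences of either sign could be called in it. Why lower calls outnumbered higher ones there was not tested. Median differences by bin were −0.04, −0.05, −0.001, 0.02 and 0.03 against M4. Against RB they were 0.04, 0.06, −0.06, −0.11 and −0.02. The level and the difference share the 24 h samples. With the level taken from insulin-treated total RNA, which the difference does not use, more than 2-fold lower probe sets in the highest bin numbered 143 and higher ones 121, against 178 and 73 with the level from M4 and RB.

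**Figure D5:**
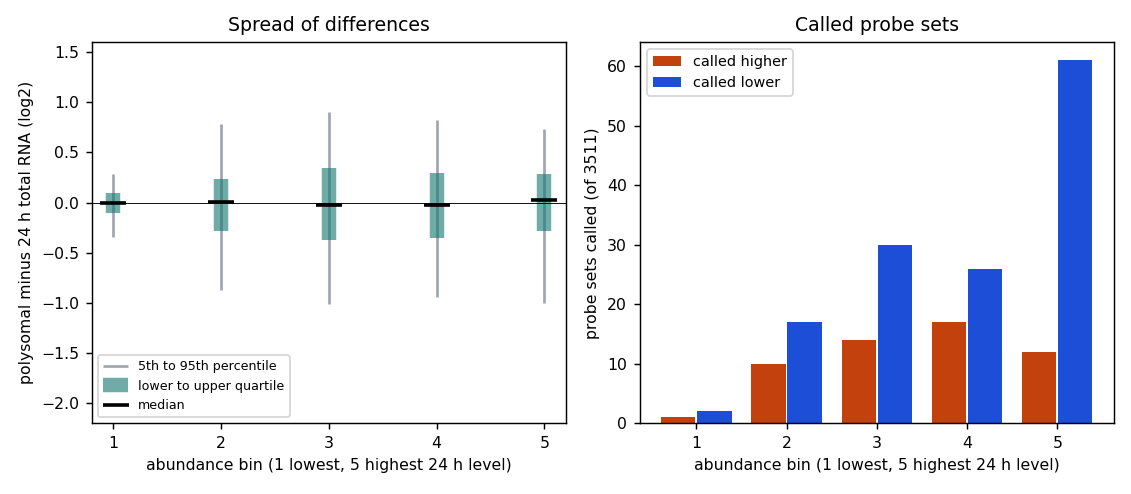
Left, difference between polysomal and 24 h total RNA (log2) in 5 bins of probe sets by 24 h level, lowest first, with the median (black), the middle of the distribution from lower to upper quartile (thick bar) and the 5th to 95th percentile (thin line). Right, number of probe sets called higher and lower per bin of 3511, where the highest bin has 12 higher and 61 lower calls.

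The same probe sets were looked up in the insulin-treated samples, which the contrast above did not use as data for its difference. The 54 higher probe sets had a median of 0.79 log2 units in insulin-treated polysomal minus insulin-treated total RNA, and the 136 lower ones a median of −0.91. Because polysomal samples with and without insulin pair off as described above, these values are not an independent repeat. AGA1 had 9.28, 9.63 and 9.87 in insulin-treated polysomal RNA, against 11.30 in insulin-treated total RNA (−1.71), and dbf1 had 7.90, 8.01 and 7.72 against 9.40 (−1.52). lem1 had 8.36, 8.22 and 8.22 in insulin-treated polysomal RNA, against 8.02 in insulin-treated total RNA, a difference of +0.24 where it was +0.95 without insulin. With 1 total RNA sample, 1 of 17555 probe sets (0.0057%) was called with insulin, ZmAffx.1488.1.S1_at (−3.79, limma adjusted p = 0.00802). A test of whether the difference between polysomal and total RNA itself depended on insulin called no probe set in limma, with 303 at an unadjusted p under 0.05. In the insulin contrast itself, 9.58% of probe sets had an unadjusted p under 0.05.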

How the data were processed

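The authors deposited 1 table of values on a scale that no header states; the deposited values were used as log2 intensities because of their range. Neither the labels nor the file state how background, normalization and probe summary were handled; limma is the one tool in the submitters' processing notes. The files give 14 columns, 1 for each array.

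Technical arrays were averaged. All 5 groups were fitted together with limma 3.58.1 in R 4.3.3 (lmFit and eBayes, 6 residual degrees of freedom). They were fitted again with M4 and RB as separate groups (5 residual degrees of freedom). Both fits treated all samples as independent. Polysomal samples paired off across the insulin groups, so the effective degrees of freedom may be fewer and the p-values too small. Controls (179 AFFX and RPTR probe sets) were left out, and p-values were adjusted by Benjamini-Hochberg over the other 17555. A probe set was at background in a group when below the 95th percentile of 23 negative controls in every sample, and a group at background gives only a bound on the fold. Figures used matplotlib 3.10.9.

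The labels do not say whether replicates came from separate seed lots, so a p-value speaks only to the variation among these samples, and the number of arrays limits the precision. Named genes are the called, non-overlapping probe sets with the largest differences that the annotation names, up to 15 in each direction, and 2 unnamed probe sets in each direction. Gene lists followed fixed categories, with aquaporins and further secretory pathway genes added once the annotation was at hand. Members and lists were chosen with earlier results of these data known. Each fit was tested on simulated data with 200 of 17555 probe sets changed. The simulated noise was independent between samples and had the same spread in every group, and M4 and RB were given the same true level. In the deposited data M4 and RB stood apart and polysomal samples paired off, so the recovered shares need not hold for them. Over 20 random draws, 93.0% to 99.0% of 4-fold changes were recovered against both samples, 82.0% to 92.0% against M4 and 84.0% to 91.5% against RB. At a 2-fold change, 23.0% to 44.0% were recovered against both samples, 0% to 0.5% against M4 and 0% against RB. Alternatives were other normalizations, filters, uses of the technical arrays, fits and left-out samples.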

Additional observations from a re-analysis of the deposited data

Results flagged for a closer look

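Of the 66 reporter-gene control probe sets, which were left out of all comparisons, 6 lay above every negative control in each of the 5 samples, at log2 levels of 4.87 to 14.09. They were singled out because a signal in unused probe sets exceeded the negative controls. No group had the 4 samples needed to test for a sample far from the others.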

How the results depend on the processing

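No paired analysis was possible because the compared groups share no replicate numbers. The 190 calls against both 24 h samples became 8 with the polysomal and 24 h groups alone (all among the 190), 10 with the EF1a ratio added (9 among them) and 574 with all arrays and a random block (168 among them). Leaving out each sample gave 6 to 2303. The count was within 1.5 times in the 7 other alternatives, including a 2-fold minimum (152). All 13 named probe sets kept their sign under every alternative that tested them. As their groups did not overlap, leaving out a sample or fitting the polysomal and 24 h groups alone could not have turned it. The number of calls against M4 was 61, and 100 with first technical arrays only, and leaving out each polysomal sample gave 11 to 41 (14, 41 and 11 without samples 1, 2 and 3). Against RB it was 2303, and 1310 to 2059 with a polysomal sample left out, with 1310 without sample 3.

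The median of 0.030 in the highest abundance bin became 0.060 with the level from insulin-treated total RNA, −0.020 with quantile normalization, 0.071 with median centring and −0.094 to 0.039 when each sample was left out. The −0.0060 of the lowest bin became 0.021 with the level in M4 and the difference against RB, −0.049 with these swapped, 0.056 above background only, 0.019 with quantile normalization, 0.035 with median centring and −0.036 to 0.059 when each sample was left out. The medians of 11 gene lists changed sign in at least 1 alternative, which for 10 of them was 1 alternative and for cell cycle genes was 8. The causes were not tested.

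A group of 2 and a group of 3 samples set the limit here, since M4 and RB are further apart than polysomal samples are. Probe sets at background, most of the lowest bin, carry no usable difference. Genes were named for 1452 of 17555 probe sets, from an annotation of 2007.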
